A study of Mus musculus with 6 samples.

Results

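The genes described here encode the proteasome, and they were taken as every probe whose platform gene symbol starts with Psma, Psmb, Psmc, Psmd, Psme, Psmf or Psmg followed by a digit. The rule found 86 probes for 49 genes among 45281 probes and 19057 genes with a single symbol. The study had 6 samples of MC38, a mouse colon carcinoma line of C57Bl/6 background, each measured on 1 single-colour Illumina bead array of the same chip. The 2 stimulated samples had been serum-starved for 16 h and given the calcium-binding protein pair S100A8/A9 at 10 µg/mL for 6 h. The 2 unstimulated samples had been starved for 16 h without S100A8/A9, and the labels do not say how their time in culture compared with the further 6 h of the stimulated samples. The 2 control samples were kept in normal growth medium. The labels do not say whether the replicates of a group were separate cultures, so the p-values below speak only of the spread among these samples and that spread may be technical. Neighbouring positions of the chip held the arrays of 1 group, and an effect of position cannot be told apart from one of the group.

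The proteasome is the cell's main machine for breaking down proteins tagged with ubiquitin. Its 20S core is a barrel of outer alpha rings and inner beta rings, and only Psmb5, Psmb6 and Psmb7 of the constitutive beta subunits cut peptide bonds. The 19S cap, built from the Psmc ATPases and most Psmd subunits, recognises and unfolds the substrates. In cells exposed to interferons, newly made cores take up Psmb8 in place of Psmb5, Psmb9 in place of Psmb6 and Psmb10 in place of Psmb7, which gives the immunoproteasome, and Psme1 and Psme2 form the 11S activator that can dock on the core. Immunoproteasomes favour peptides with the carboxyl ends that bind MHC class I molecules.

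Probe signals are given in the arbitrary units of the scanner. Median signals were 90.2 to 97.4 per array, and 14877 to 16176 probes per array were detected (deposited detection p-value below 0.01). Replicate arrays correlated at 0.991 to 0.992 over the tested genes. Log2 values below are background-corrected and quantile-normalized, and a gene was called changed at a Benjamini-Hochberg adjusted p below 0.05 from limma over 8909 genes. Of 8 epithelial markers 7 were detected on no array, and the 8th, Cdh1, on a single control array. Their summed signal was 645.2 to 667.3 in stimulated, 686.2 to 710.4 in unstimulated and 714.3 to 718.1 in control samples. Of 7 leukocyte markers 5 were detected on no array, among them Ptprc (CD45). The other 2 were each detected on a single stimulated array, Cd3e on the first (109.3) and Cd74 on the second (123.6), and on no unstimulated or control array. The summed leukocyte signal was 616.9 to 656.2 in stimulated, 668.3 to 671.7 in unstimulated and 607.3 to 629.9 in control samples. The 2 endothelial markers were detected nowhere. Of 6 mesenchymal markers, 5 were tested. In unstimulated against control samples 3 rose and 1 fell, where 17.1% of all tested genes rose and 13.7% fell. Among the 3 was Col1a1, which was not detected in control samples (92.2 and 88.5) and was tested only through starved arrays. Its corrected unstimulated mean lay below the lowest detected level of the control arrays, so no bound on its rise can be given. The summed mesenchymal signal was 17959 to 19480 in stimulated, 19151 to 24748 in unstimulated and 13608 to 21613 in control samples. The part of these markers in the results below was not tested.

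Of the 49 genes, 42 were detected and tested through 69 detected probes, and the chosen probe of each was detected on all 6 arrays. The tested genes comprised the 5 inducible genes, 27 of 31 constitutive core and cap genes and 10 of 13 others. The 7 genes without a detected probe were Psma1, Psma3, Psma6, Psmd3, the assembly chaperone Psmg4, the testis subunit Psma8 and the thymus subunit Psmb11, and none of their probe signals exceeded 103.7. For these genes the arrays give no level. The inhibitor Psmf1 was not analysed here. Psmc3ip, a meiotic recombination factor, and Psme3ip1, a partner of Psme3, match the naming rule without being subunits. The reference gene table lists copies named after Psma5, Psmb5, Psmb6, Psmb7 and Psme2, and whether their probes also bind transcripts of these copies was not tested.

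The starts of Psmb8, Psme1, Psmb9, Psmb5 and Psmb6 are shown from 250 bases before to 50 bases after the annotated start (RefSeq, GRCm38.p6). This puts some of the inducible genes beside constitutive counterparts. Such windows were found for 41 of the 49 genes. Psmb10, Psme2 and Psmb7, which belong to the same contrast, are not shown, and none of the motifs marked below was found for them. The Psmb8 window is chr17:34197945-34198244 on the + strand, and its capitals mark the palindrome TTCNNNGAA, which begins 97 bases before the start. The Psme1 window is chr14:55578244-55578543 on the + strand, and its capitals mark a match to the interferon response element core (GAAA, any 2 bases, GAAA, here on the reverse strand) at bases 10 to 19 of the transcript. The Psmb9 window is chr17:34187281-34187580 on the - strand and holds neither of these. The Psmb5 window is chr14:54617946-54618245 on the - strand and the Psmb6 window chr11:70525107-70525406 on the + strand, and the capitals in both mark the antioxidant response element core (TGACNNNGC), which begins 47 and 9 bases before the start.
Psmb8: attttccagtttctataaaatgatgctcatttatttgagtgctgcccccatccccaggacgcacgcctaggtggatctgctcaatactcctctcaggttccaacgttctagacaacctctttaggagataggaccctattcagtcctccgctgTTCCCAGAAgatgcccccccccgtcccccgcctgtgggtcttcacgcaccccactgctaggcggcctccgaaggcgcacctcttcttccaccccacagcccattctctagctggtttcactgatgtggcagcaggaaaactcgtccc
Psme1: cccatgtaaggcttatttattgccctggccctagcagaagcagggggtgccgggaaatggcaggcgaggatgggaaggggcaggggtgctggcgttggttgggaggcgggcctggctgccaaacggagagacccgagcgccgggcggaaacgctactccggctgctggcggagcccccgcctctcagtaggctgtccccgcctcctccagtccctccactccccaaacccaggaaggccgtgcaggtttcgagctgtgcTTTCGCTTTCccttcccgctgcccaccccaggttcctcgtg
Psmb9: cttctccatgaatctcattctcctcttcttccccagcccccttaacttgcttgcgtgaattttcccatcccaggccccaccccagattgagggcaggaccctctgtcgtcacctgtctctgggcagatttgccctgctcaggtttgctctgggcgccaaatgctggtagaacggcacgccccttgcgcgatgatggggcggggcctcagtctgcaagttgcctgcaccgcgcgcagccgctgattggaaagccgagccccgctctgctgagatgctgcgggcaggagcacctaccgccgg
Psmb5: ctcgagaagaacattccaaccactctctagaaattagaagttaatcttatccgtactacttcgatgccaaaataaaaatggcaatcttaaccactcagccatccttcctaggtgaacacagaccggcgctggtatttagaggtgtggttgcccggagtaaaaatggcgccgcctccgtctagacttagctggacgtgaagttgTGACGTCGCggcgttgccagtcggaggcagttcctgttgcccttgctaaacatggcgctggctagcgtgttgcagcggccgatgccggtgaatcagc
Psmb6: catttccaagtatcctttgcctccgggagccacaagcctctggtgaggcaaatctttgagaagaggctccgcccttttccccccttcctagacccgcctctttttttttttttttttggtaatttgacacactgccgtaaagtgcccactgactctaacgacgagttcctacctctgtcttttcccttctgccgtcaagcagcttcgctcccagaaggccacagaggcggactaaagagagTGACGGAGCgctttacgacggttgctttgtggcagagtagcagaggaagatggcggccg

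Both strands were searched for each motif. Member counts are of genes, and a gene was counted if any of its windows held the motif. The shares of all mouse windows count every window on its own. The measures are therefore unlike, since a gene such as Psme2 has several windows. The interferon response element core was present in 1 of 5 inducible genes (Psme1) and 2 of 25 constitutive genes, against 3.44% of 32851 mouse windows of 300 bases. The palindrome was present in 1 of 5 inducible genes (Psmb8) and 1 of 25 constitutive genes, against 8.3% of all windows. The antioxidant response element core was present in 0 of 5 inducible and 4 of 25 constitutive genes (Psmb5, Psmb6, Psmc6 and Psmd12), against 12.39%. A strict NF-kB site (GGG, any 2 bases, TTTCC) was in 0 of 5 and 0 of 25, against 1.63%. The GC box (GGGCGG) was in 3 of 5 inducible and 15 of 25 constitutive genes, against 35.66%. These matches are descriptions of the letters in the windows. Psmb9 and Tap1, which encodes a chain of the peptide transporter, start 226 bases apart on opposite strands, and their windows share 275 of 300 bases. In the gene order of chromosome 17, Psmb9, Tap1, Psmb8 and Tap2 follow each other, and on chromosome 14 the order is Psme1, Emc9, Psme2, Rnf31 and Irf9.

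Starvation was compared with growth medium first. All 5 inducible genes were higher in unstimulated than in control samples, by 1.59- to 3.63-fold, while 0 of the 27 tested constitutive core and cap genes rose and 2 fell. Among all 42 tested proteasome genes 5 rose and 5 fell, where 17.1% of all tested genes rose and 13.7% fell (30.8% called in either direction).

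Psmb8, the inducible counterpart of Psmb5, had signals of 2812.8 and 3726.8 in stimulated, 3367.3 and 3521.9 in unstimulated and 1255.6 and 1347.6 in control samples. Both starved groups lay above both control arrays without overlap. The change in unstimulated against control samples was 1.49 ± 0.15 on the log2 scale (SE), which is 2.82-fold (limma, adjusted p = 0.000307). A second, dimmer Psmb8 probe gave 1.22 ± 0.22.

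Psmb9, the inducible counterpart of Psmb6, had signals of 453.6 and 505.9 in stimulated, 507.8 and 662.9 in unstimulated and 208.8 and 208.3 in control samples. Its change of 1.86 ± 0.20 (3.63-fold, limma adjusted p = 0.00045) ranked 75 among the rises of all 8909 genes, and that of Psmb8 ranked 157. The size of the Psmb9 change depended on the processing, with log2 estimates of 1.45 to 2.15 over 17 alternative settings. Psmb10, the inducible counterpart of Psmb7, had signals of 7815 and 8744 in stimulated, 8263 and 7239 in unstimulated and 3968.5 and 4625 in control samples. It rose by 0.96 ± 0.14 (1.95-fold, limma adjusted p = 0.00166), and its second probe gave 1.27 ± 0.17.

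Psme1, the alpha chain of the 11S activator, had signals of 5329 and 6954 in stimulated, 6067 and 6103 in unstimulated and 3263 and 4426 in control samples. It rose by 0.79 ± 0.15 in unstimulated against control samples (1.72-fold, limma adjusted p = 0.00566), with 0.82 ± 0.21 at its second probe. Psme2, the beta chain, had signals of 596.8 and 701.1 in stimulated, 750.2 and 728.4 in unstimulated and 465.9 and 514.4 in control samples. Its rise of 0.67 ± 0.14 (1.59-fold, limma adjusted p = 0.00788) was the smallest of the 5. Psmb8, Psmb9, Psmb10 and Psme1 kept their call in all 17 alternative settings and Psme2 in 16, the exception being the fit without the second unstimulated array (0.64, limma adjusted p = 0.0531).

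**Figure D1:**
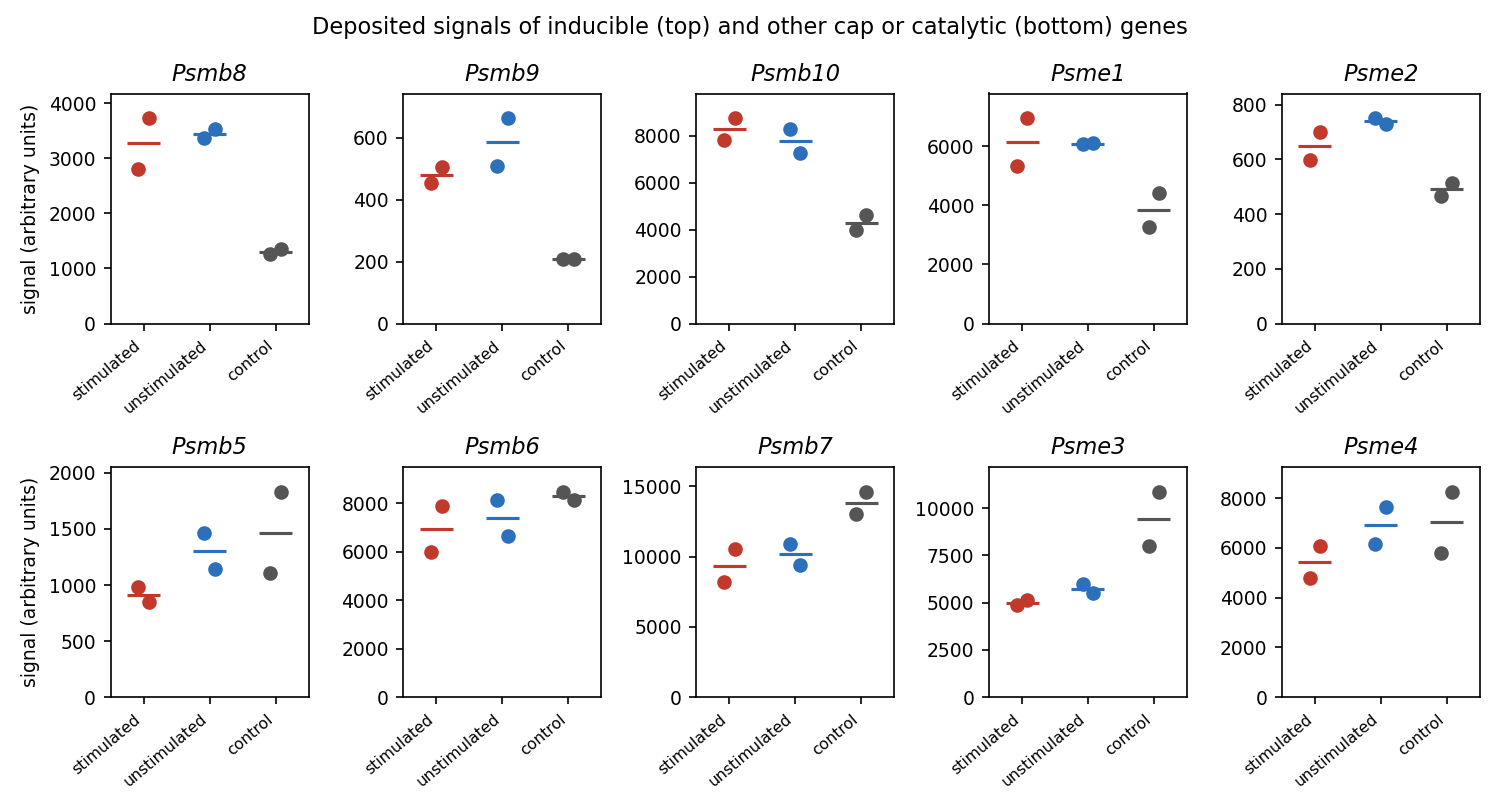
Deposited signals (arbitrary units, vertical axes from 0, own scale per gene) of the 5 inducible genes (top) and of Psmb5, Psmb6, Psmb7, Psme3 and Psme4 (bottom) in stimulated, unstimulated and control samples, with 1 point per array and a bar at the mean of 2. In the top row all 4 starved arrays lie above both control arrays, as with Psmb8 at 2812.8 or more against 1347.6 or less, and in the bottom row they do not.

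The constitutive counterparts of the inducible catalytic subunits were not called. Psmb5 had signals of 978.3 and 845.0 in stimulated, 1464.7 and 1146.4 in unstimulated and 1103.1 and 1833.4 in control samples. Its estimate in unstimulated against control samples was -0.10 (95% interval -0.61 to 0.40, limma adjusted p = 0.751), and the 2 control arrays differed more from each other than the groups did. Psmb6 had signals of 5975 and 7893 in stimulated, 8132 and 6646 in unstimulated and 8470 and 8140 in control samples, with an estimate of -0.05 (-0.41 to 0.31, limma adjusted p = 0.85). Its second probe gave 0.23 ± 0.15, the opposite sign. Psmb7 had signals of 8215 and 10509 in stimulated, 10876 and 9424 in unstimulated and 13054 and 14625 in control samples. Its estimate was -0.26 (-0.58 to 0.06, limma adjusted p = 0.192), both unstimulated arrays lay below both control arrays, and its 3 other probes gave -0.46 to -0.48.

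When the change of each inducible gene was set against that of its constitutive counterpart on the same array, with each log ratio centred on the control mean, the unstimulated samples were higher in every pair. For Psmb8 against Psmb5 the centred log2 ratio was 1.75 and 2.39 in stimulated, 1.37 and 1.82 in unstimulated and 0.34 and -0.34 in control samples, a difference of 1.60 ± 0.43 (SE) in unstimulated against control samples. The difference was 1.90 ± 0.33 for Psmb9 against Psmb6 and 1.23 ± 0.08 for Psmb10 against Psmb7. For Psme1 and Psme2 against Psme3, which encodes the nuclear 11S activator, it was 1.37 ± 0.15 and 1.26 ± 0.18. The smallest two-sided exact permutation p that 2 arrays against 2 can give is 0.333, and these differences are given with their SE and no p.

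Over the whole constitutive core and cap, 24 of 27 estimates were below 0 in unstimulated against control samples, with a median of -0.24 on the log2 scale, where the median over all 8909 genes was -0.0016. Both unstimulated arrays lay below both control arrays for 17 of the 27 genes and above for 1 (Psmb4), where all tested genes gave 33.8% below and 34.7% above. In the 20S core, 9 of 11 estimates were below 0 with a median of -0.16, and 0 were called. In the 19S cap, 15 of 16 were below 0 with a median of -0.28, and 2 were called lower. At the chosen probes the share called lower in the constitutive set, 7.41%, was under the 13.7% of all tested genes. That share depends on the choice of probe. Over the mean of the detected probes, 5 of all 42 proteasome genes rose and 9 fell, where 17% and 15.3% of all tested genes did. The second probe of the cap gene Psmd11 gave -0.96 ± 0.17 (limma, adjusted p = 0.00552), where the chosen probe gave -0.39 and was not called. With median scaling in place of quantile normalization the constitutive median was -0.32 and the inducible median 0.90, against an all-gene median of 0.01.

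**Figure D2:**
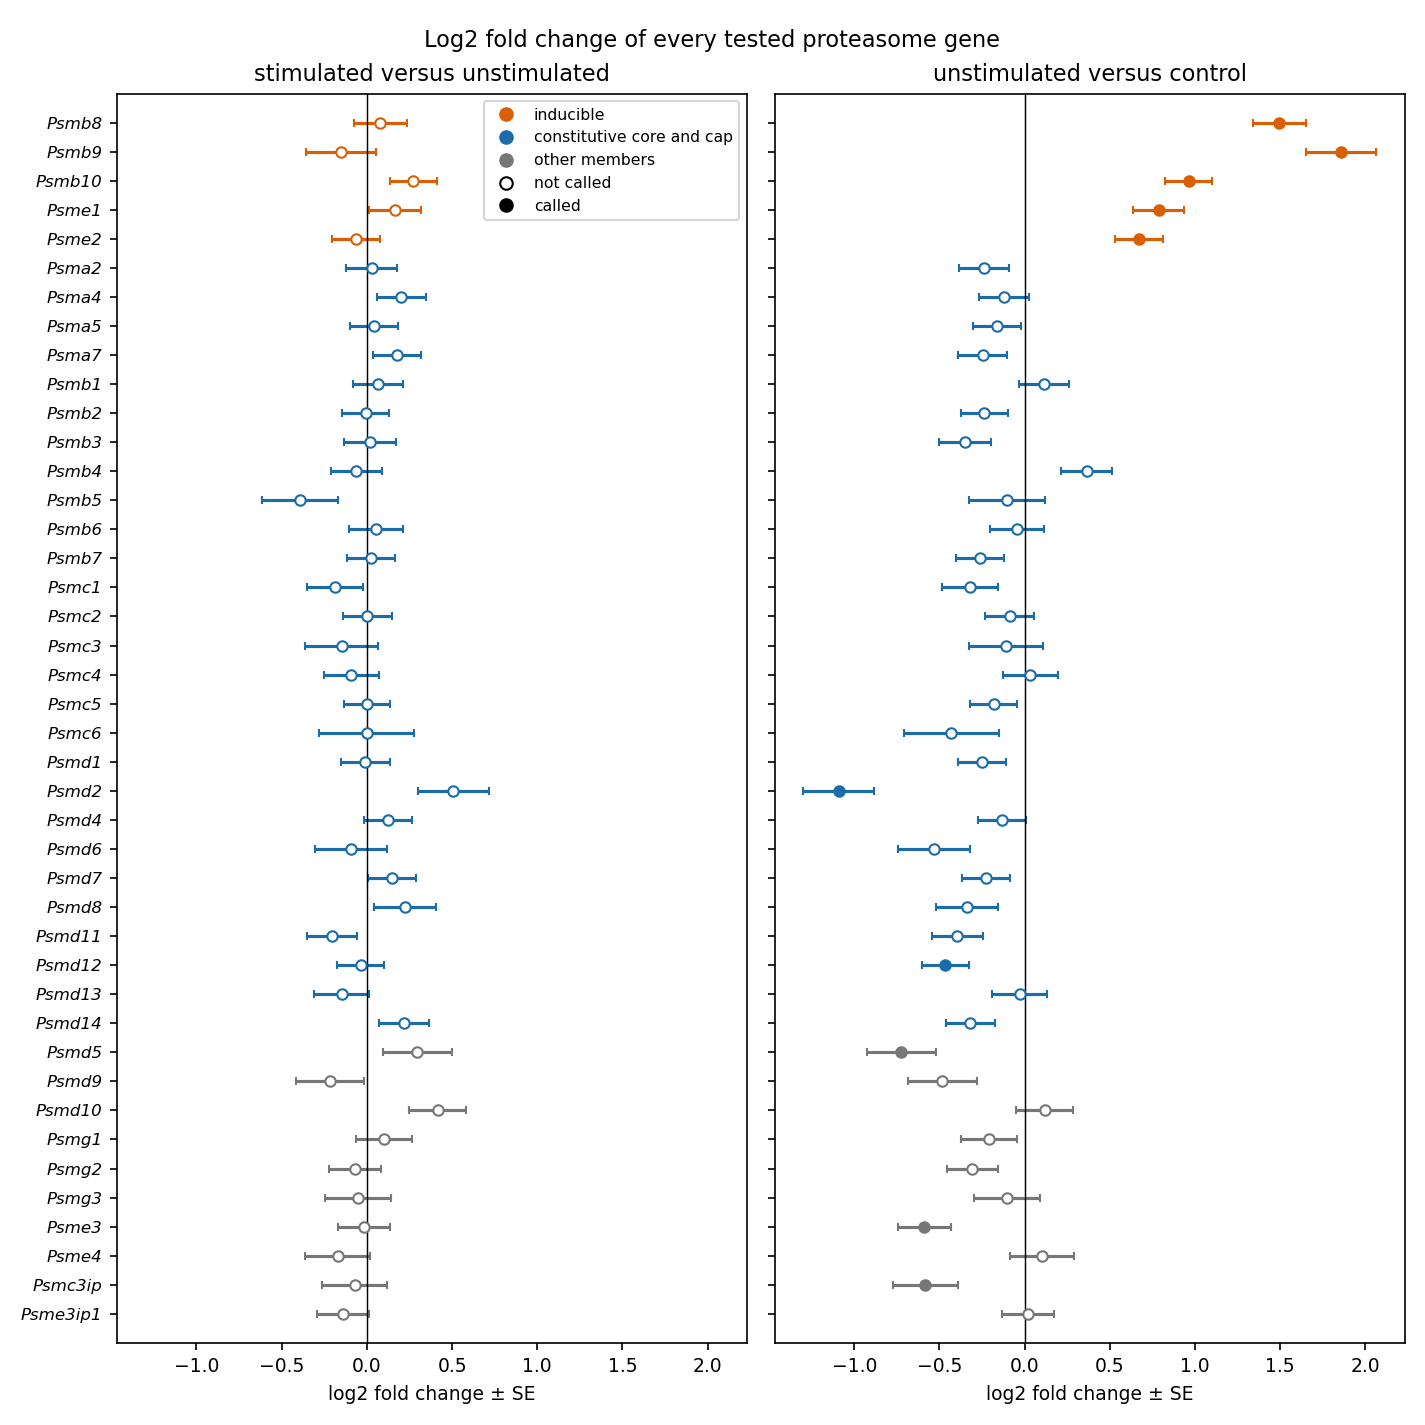
Log2 fold change with its standard error for each of the 42 tested genes, stimulated versus unstimulated (left) and unstimulated versus control (right), with filled points for genes called at an adjusted p below 0.05. On the right the 5 inducible genes lie between 0.67 and 1.86 and 24 of 27 constitutive genes lie left of 0, and on the left no point is filled.

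Psmd2, a scaffold subunit of the 19S base, had signals of 136.8 and 150.3 in stimulated, 123.7 and 135.0 in unstimulated and 166.7 and 230.8 in control samples. These lie close to the lowest detected signals, 109.3 to 121.7 per array. It fell by 1.09 ± 0.21 in unstimulated against control samples (limma, adjusted p = 0.00545), and without background correction the size was smaller, at -0.59. Its second probe was detected on 4 of 6 arrays and gave -0.78 ± 0.41. Psmd12, a subunit of the 19S lid, had signals of 4111 and 5023 in stimulated, 5392 and 4992 in unstimulated and 7508 and 8070 in control samples. It fell by 0.46 ± 0.14 (limma, adjusted p = 0.0326), with -0.92 ± 0.16 at its second probe. This call ended without any single array of the unstimulated and control groups (limma, adjusted p = 0.0863 to 0.127) with median scaling (0.0539) and without the detection filter (0.0591).

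Outside the core and the cap, Psme3 had signals of 4888 and 5120 in stimulated, 5972 and 5505 in unstimulated and 8009 and 10879 in control samples. It fell by 0.59 ± 0.15 in unstimulated against control samples (limma, adjusted p = 0.0206), so that the members of the 11S family went in opposite directions. Psme4, the PA200 cap known from spermatogenesis and DNA repair, had signals of 4806 and 6099 in stimulated, 6175 and 7642 in unstimulated and 5788 and 8268 in control samples, and its groups overlapped (0.10, interval -0.33 to 0.53, limma adjusted p = 0.715). The Psme3 call ended without the first or the second unstimulated array or the second control array (limma, adjusted p = 0.0773, 0.0895 and 0.116).

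Of the chaperones that assemble the 19S base, Psmd5 had signals of 629.1 and 580.2 in stimulated, 660.1 and 474.3 in unstimulated and 888.6 and 869.3 in control samples, and it fell by 0.72 ± 0.20 in unstimulated against control samples (limma, adjusted p = 0.0263). That call ended without the second unstimulated array (-0.51, adjusted p = 0.171) or the first control array (-0.57, adjusted p = 0.142), and without the detection filter (adjusted p = 0.0638). Psmd9 and Psmd10 were not called (-0.48 ± 0.20 and 0.12 ± 0.17), but over the mean of its detected probes Psmd9 was (-0.53, adjusted p = 0.0247). The chaperones of the 20S core were not called either: Psmg1 gave -0.21 ± 0.16, Psmg2 -0.31 ± 0.15, Psmg3 -0.10 ± 0.19 and Pomp, the maturation protein that leaves with the finished core, -0.10 ± 0.16. The recombination factor Psmc3ip, with signals of 1344 and 1594 in stimulated, 2051 and 1434 in unstimulated and 2732 and 2491 in control samples, fell by 0.58 ± 0.19 (limma, adjusted p = 0.0456). Its call ended without the second unstimulated array (-0.36, adjusted p = 0.266), the first control array (-0.41, adjusted p = 0.228) or the first stimulated array (-0.58, adjusted p = 0.0501). It also ended with median scaling (adjusted p = 0.0557), without the detection filter (0.1), with every detected probe on its own (0.0594) and in a fit of the 2 groups alone (0.051).

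Of the 27 further detected probes of the 21 genes with several, 25 agreed in sign with the chosen probe between unstimulated and control samples, and 1 lay over 1.5-fold away. That probe belongs to Psmd6, a lid subunit, which gave -1.62 ± 0.33 there and -0.53 ± 0.21 (limma, adjusted p = 0.0886) at the chosen probe. Between stimulated and control samples 26 agreed in sign and 2 lay over 1.5-fold away, belonging to Psme4 and Psmd7. The Psme4 probe, dim but detected on all 6 arrays, gave 0.61 ± 0.16 (limma, adjusted p = 0.0253), against -0.07 at the chosen probe. The Psmd7 probe gave -0.69 ± 0.26 (limma, adjusted p = 0.0846), against -0.08 at the chosen probe. Between stimulated and unstimulated samples only 14 of the 27 agreed in sign and 3 lay over 1.5-fold away, belonging to Psmd6 (0.57 ± 0.33), Psmd9 (0.45 ± 0.18) and Psme4 (0.46 ± 0.16), whose chosen probes gave -0.09, -0.22 and -0.17.

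The question of the study was what S100A8/A9 adds to starved cells. For the proteasome genes, 0 of 42 were called between stimulated and unstimulated samples, where 0.0786% of all tested genes were called, 7 genes in all and each of them higher. Both that number and its direction depended on the processing: without background correction 30 genes were higher and 14 lower, and with median scaling 8 were higher and 7 lower. At an unadjusted p below 0.05 there were 2 proteasome genes, 4.76% of the 42, against 8.19% of all tested genes. These were Psmd2 (0.51 ± 0.21, limma adjusted p = 0.577, with 0.02 ± 0.41 at its second probe) and Psmd10, the oncoprotein gankyrin (0.42 ± 0.17, limma adjusted p = 0.567). The Psmd10 signals were 2861 and 4265 in stimulated, 2985 and 2911 in unstimulated and 2842 and 2851 in control samples. Before normalization, the signal of the second stimulated array stood apart from the other 5. On the normalized log2 scale stimulated arrays (11.70 and 12.06) lay above unstimulated (11.43 and 11.50) and control arrays (11.45 and 11.24). Other Psmd10 probes gave 0.28 ± 0.18 and 0.24 ± 0.18 in stimulated against unstimulated samples.

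For the inducible genes, the estimates in stimulated against unstimulated samples ran from -0.15 to 0.27 at the chosen probes. Psmb8 differed by 0.08 (95% interval -0.27 to 0.43), Psmb9 by -0.15 (-0.61 to 0.31) and Psmb10 by 0.27 (-0.04 to 0.59). Psme1 differed by 0.17 (-0.18 to 0.51) and Psme2 by -0.06 (-0.38 to 0.26). The limma adjusted p-values were 0.675 to 0.949. The second probes gave -0.03 ± 0.22 for Psmb8, 0.43 ± 0.17 for Psmb10 and -0.13 ± 0.21 for Psme1, of which those of Psmb8 and Psme1 had the opposite sign to the chosen probe and that of Psmb10 lay higher. The constitutive median was 0.00, with single estimates of -0.39 (Psmb5) to 0.51 (Psmd2).

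Per array, the mean of the 5 inducible genes minus the mean of the 27 constitutive genes, centred on control, was 1.43 and 1.43 in stimulated, 1.25 and 1.51 in unstimulated and 0.07 and -0.07 in control samples. The 2 stimulated arrays lay between the 2 unstimulated arrays, and all 4 lay above both control arrays. The difference was 0.04 ± 0.12 (SE) between stimulated and unstimulated samples and 1.38 ± 0.12 between unstimulated and control samples. Between unstimulated and control samples the mean of the inducible genes differed by 1.15 ± 0.08 and that of the constitutive genes by -0.23 ± 0.05.

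**Figure D3:**
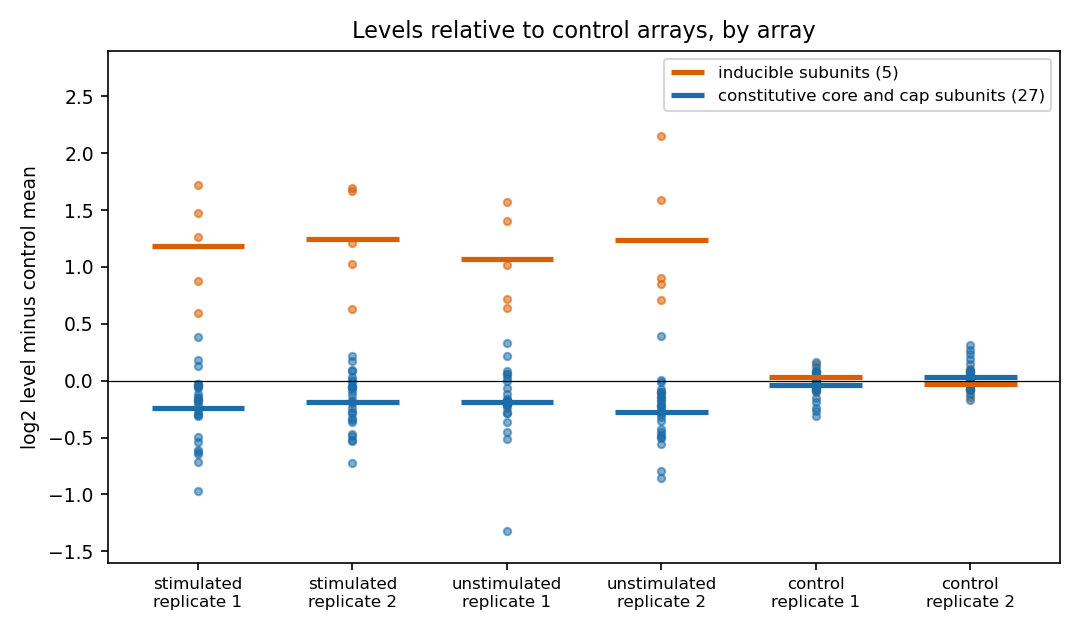
Log2 level minus the control mean (vertical axis) for the 5 inducible and 27 constitutive tested genes on each of the 6 arrays, with 1 point per gene and a bar at the mean of each set. The inducible means lie at 1.07 to 1.25 on the 4 starved arrays and the constitutive means at -0.18 to -0.27, and both are near 0 on the control arrays by construction.

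The stimulated samples were also set against control. That comparison shares the control arrays with the starvation comparison, so its values are given beside those above and are not a second line of evidence. Among the 42 tested genes 6 rose and 6 fell, where 15.9% of all tested genes rose and 13.2% fell (29.1% called in either direction). The inducible genes rose by 1.57 ± 0.15 (Psmb8), 1.71 ± 0.20 (Psmb9), 1.24 ± 0.14 (Psmb10), 0.95 ± 0.15 (Psme1) and 0.61 ± 0.14 (Psme2), with limma adjusted p-values of 0.000245 to 0.0122. Psme2 lost its call without the second control array (0.55, adjusted p = 0.0667) and with median scaling (0.54, adjusted p = 0.0562). Psmd10 also rose, by 0.53 ± 0.17 (limma, adjusted p = 0.0425), and its other 2 probes gave 0.71 ± 0.18 and 0.58 ± 0.18. Without the second stimulated array its value was 0.35 (adjusted p = 0.212), the call also ended without either control array or either unstimulated array (0.0635 to 0.189), and with the replicate number as a block the adjusted p was 0.0562. It ended as well with median scaling (0.213), without the detection filter (0.087), with every detected probe on its own (0.0563) and in a fit of the 2 groups alone (0.0679).

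Of the 6 genes that fell in stimulated against control samples, 3 encode subunits of the 19S cap (Psmd11, Psmd12 and Psmc1). They are 18.8% of the 16 tested cap genes, where 13.2% of all tested genes fell. In the constitutive 20S core 0 of the 11 tested genes fell. The median estimates were -0.22 for the cap and -0.12 for the core, and a difference between cap and core was not tested. The other genes that fell were the activator Psme3, the assembly chaperone Psmd9 and the recombination factor Psmc3ip. Psmd11, a lid subunit, had signals of 688.9 and 918.1 in stimulated, 1055.1 and 942.8 in unstimulated and 1243.7 and 1391.9 in control samples and fell by 0.60 ± 0.15 (limma, adjusted p = 0.0169). Psmd12 fell by 0.50 ± 0.14 (adjusted p = 0.0254) and Psme3 by 0.61 ± 0.15 (adjusted p = 0.0187). Psmd9, with signals of 253.8 and 323.3 in stimulated, 404.0 and 308.5 in unstimulated and 479.9 and 440.9 in control samples, fell by 0.70 ± 0.20 (adjusted p = 0.0299). Psmc3ip fell by 0.65 ± 0.19 (adjusted p = 0.0311). Psmc1, a 19S ATPase, had signals of 2292 and 2639 in stimulated, 3521 and 2784 in unstimulated and 3435 and 4871 in control samples and fell by 0.51 ± 0.16 (adjusted p = 0.0458).

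Each of these 6 calls ended in at least 1 fit that left out an array. The Psmd11 call ended without the first stimulated, first control or second control array, with adjusted p-values of 0.0893, 0.0804 and 0.0514. The Psmd12 call ended without any single stimulated or control array (0.0653 to 0.105), and the Psme3 call without the second stimulated or second control array (0.0897 and 0.107). The Psmd9 call ended without the first stimulated or first control array (0.126 and 0.17) and over the mean of its detected probes (-0.42, adjusted p = 0.0594), and its second probe gave -0.14 ± 0.18. The Psmc3ip call ended without the first stimulated, second stimulated or first control array (0.092, 0.0797 and 0.166). The Psmc1 call ended without any 1 of the 6 arrays (0.0525 to 0.23), with every detected probe on its own (0.0603), with the replicate number as a block (0.0633) and in a fit of the 2 groups alone (0.0584). Without the detection filter the Psmd9, Psmc3ip and Psmc1 calls ended too (0.0697, 0.0702 and 0.0913).

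The genes on either side of the immunoproteasome were read from 5 further lists. In the list of peptide processing and class I loading, 12 of 15 genes were tested, and 7 rose and 1 fell in unstimulated against control samples, with a median of 0.56, where 17.1% of all tested genes rose and 13.7% fell. Leaving out either unstimulated array or the first control array left 4 rises: the H2-D1 and Tap1 calls ended in each of these fits, the H2-K1 call without the first unstimulated or first control array, and the B2m call without the second unstimulated array. With median scaling 5 rose (B2m and H2-D1 not called), and without the detection filter 5 rose (H2-D1 and Tap1 not called). The fits without an unstimulated or a control array called 9.5% to 12.4% of all genes higher. Tapbp, the tapasin that loads peptides onto class I molecules, rose by 2.05 ± 0.14 (limma, adjusted p = 3.94e-05), Tap2, a chain of the peptide transporter, by 1.54 ± 0.21 (adjusted p = 0.00135) and Tapbpl, a tapasin relative, by 1.17 ± 0.20 (adjusted p = 0.00321). Tap1, the neighbour of Psmb9, had signals of 337.2 and 290.5 in stimulated, 327.6 and 299.6 in unstimulated and 214.9 and 227.1 in control samples and rose by 0.67 ± 0.18 (adjusted p = 0.0222), a call that ended without any single unstimulated or control array (0.0563 to 0.103) and without the detection filter (0.0512). Thop1, a cytosolic peptidase known to destroy peptides before they reach class I molecules, fell by 1.11 ± 0.14 (adjusted p = 0.001), with signals of 708.9 and 802.4 in stimulated, 655.7 and 638.6 in unstimulated and 1165.5 and 1546.4 in control samples. In stimulated against unstimulated samples 0 of the 12 were called, and the largest estimates were Erap1, the peptidase that trims peptides in the endoplasmic reticulum (0.93 ± 0.21, adjusted p = 0.23), and Tapbp (0.48 ± 0.14, adjusted p = 0.402). In stimulated against control samples 8 rose and 1 fell, where 15.9% of all tested genes rose and 13.2% fell. The largest rises were Tapbp (2.53), Tap2 (1.79), Tapbpl (1.27) and Erap1 (1.08), the last of which was 0.62 without background correction. The B2m call (0.47) held in 8 of the 17 alternative settings. With median scaling B2m gave 0.24 (limma, adjusted p = 0.416) and H2-D1 0.42 (adjusted p = 0.134), and neither was called. Without the second control array 5 rose, and the B2m, H2-D1 and Tap1 calls ended.

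In the list of interferon signalling to the inducible subunits, 11 of 16 genes were tested. In unstimulated against control samples 8 rose and 0 fell, where 17.1% of all tested genes rose and 13.7% fell. The median was 0.59, also with genes below detection in control at their bound. The 8 include Nlrc5 and Socs1, detected on 4 and 2 arrays and on no control array. Both passed the detection filter only through starved samples, so their place in the count depends on the groups compared. Without the first unstimulated array 2 rose (Nlrc5 and Irf1): the calls of Stat2, Irf2, Irf9, Ifngr1 and Jak2 ended, and Socs1 was no longer tested. Without the second unstimulated array 4 rose, the calls of Irf2, Ifngr1 and Jak2 having ended and Socs1 again not being tested, and without the second control array 5 rose. Nlrc5, the transactivator of class I genes, had signals of 166.3 and 171.9 in stimulated, 178.5 and 169.9 in unstimulated and 110.0 and 110.2 in control samples and was at least 2.01-fold higher on the background-corrected scale in unstimulated than in control samples, where it was not detected (limma, adjusted p = 0.000351). Without background correction its log2 difference was only 0.65 (adjusted p = 0.000542), so that 2.01 is a bound for the corrected scale alone. Socs1, a feedback inhibitor of JAK kinases, was likewise not detected in control samples and was at least 1.32-fold higher on that scale in unstimulated samples (adjusted p = 0.00684), with a log2 difference of 0.44 without background correction. Such bounds set the mean of the detected group against the lowest detected signal of each array in the other group, or the probe's own signal where that is higher. Stat2 rose by 1.03 ± 0.21 (adjusted p = 0.00782), or 0.64 without background correction, and Irf1 rose by 0.85 ± 0.15 (adjusted p = 0.00423). Ifng, Ifnb1, Irf8 and Ifnar1 were not detected.

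In stimulated against unstimulated samples 0 of these 11 genes were called. Irf9, a DNA-binding subunit of the type I interferon factor, had signals of 386.4 and 440.9 in stimulated, 280.9 and 247.3 in unstimulated and 185.9 and 203.0 in control samples. Its difference of 0.99 ± 0.14 missed the threshold (limma, adjusted p = 0.0527). Both stimulated arrays lay above both unstimulated arrays, as they did for 18.5% of all tested genes. Irf9 passed the threshold without background correction (limma, adjusted p = 0.00213), in the deposited log2 table (0.00213) and with an offset of 50 (0.0056). It also passed among probes detected on all 6 arrays (0.0165) and with a trend of the spread over intensity (0.00884), and in no other alternative setting. Socs1 was not detected in stimulated samples and was not called (at least 1.38-fold lower than in unstimulated samples on the background-corrected scale, adjusted p = 0.262, with a log2 difference of -0.36 without the correction). In stimulated against control samples 6 rose, Nlrc5 again among them, and 1, Ifngr2, fell, where 15.9% of all tested genes rose and 13.2% fell. The Ifngr2 estimate was -0.82, and -0.49 without the first stimulated array, where it was not called. Over the mean of its detected probes Ifngr2 gave -0.32 (adjusted p = 0.126), and its call also ended without either control array (0.0645 and 0.0756). Leaving out the first stimulated array or either control array left 4 rises, with Irf2 and Jak2 not called. The largest rises were Irf9 (1.61), Nlrc5 (at least 2.18-fold on the corrected scale, or a log2 difference of 0.72 without background correction), Stat2 (1.34, or 0.87 without background correction) and Irf1 (1.02).

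**Figure D4:**
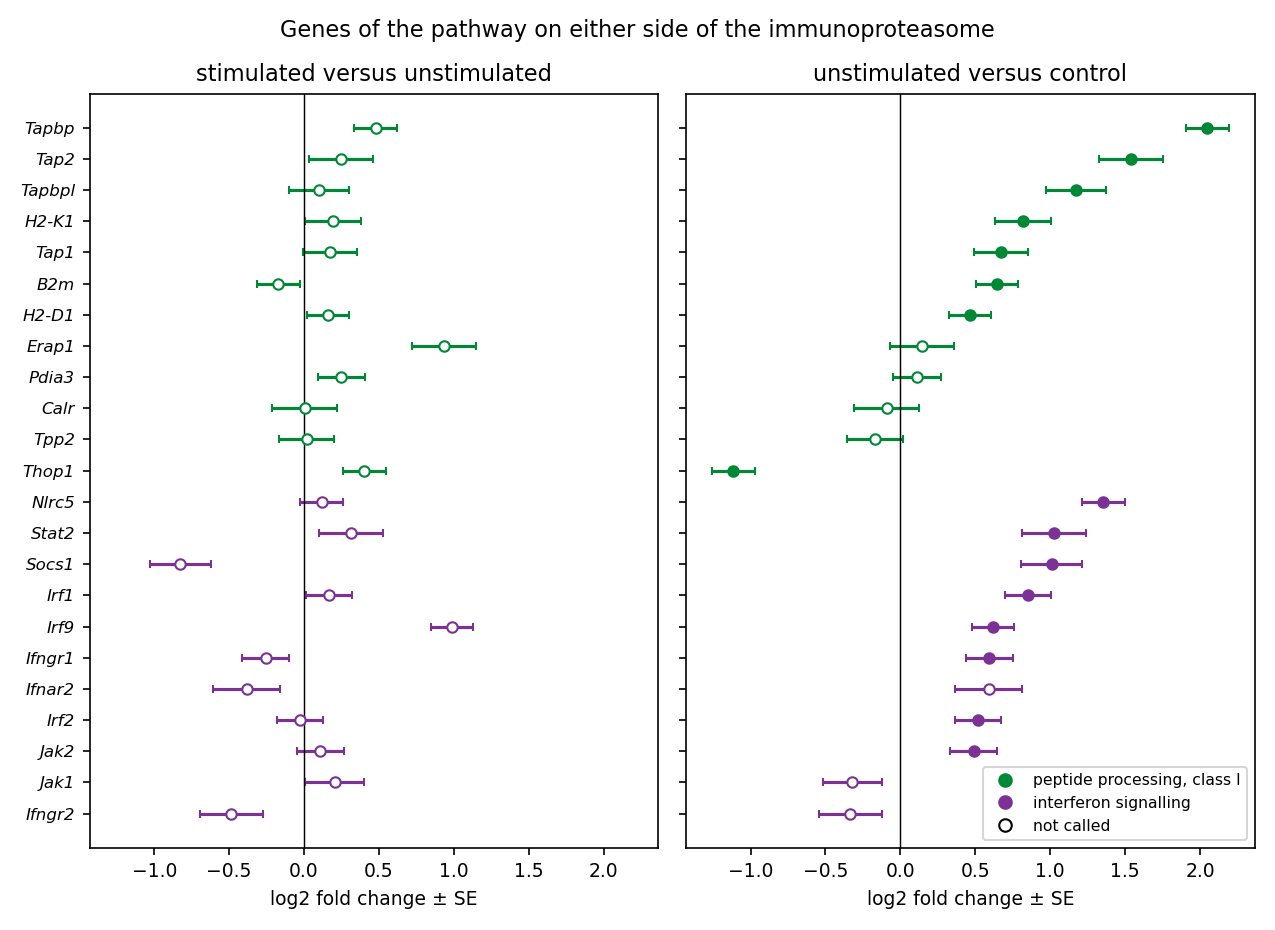
Log2 fold change with its standard error for the tested genes of peptide processing and class I loading (green) and of interferon signalling (purple), stimulated versus unstimulated (left) and unstimulated versus control (right), with filled points for genes called at an adjusted p below 0.05. On the right 15 of 23 points are filled and right of 0 and Thop1 is filled at -1.11, on the left no point is filled, and Nlrc5 and Socs1, below detection in control samples, are drawn at their fitted values.

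Of the proteasome's partners and shuttles, 14 of 21 were tested. In unstimulated against control samples 0 rose and 2 fell, where 17.1% of all tested genes rose and 13.7% fell. Usp14, a deubiquitinase of the 19S cap, fell by 1.06 ± 0.25 (limma, adjusted p = 0.0127), but over the mean of its probes the value was -0.29 (adjusted p = 0.324), and the call ended without either unstimulated array or the first control array (0.0536 to 0.0802). Ubqln4, a shuttle for ubiquitinated proteins, fell by 0.51 ± 0.14 (adjusted p = 0.0233), a call that ended without any single unstimulated or control array (0.064 to 0.101) and with median scaling (0.0803). In stimulated against unstimulated samples 0 of 14 were called, with the largest estimates for Ubqln1 (-0.41) and Ufd1 (0.36). In stimulated against control samples 0 rose and 3 fell, where 15.9% of all tested genes rose and 13.2% fell. Those that fell were Usp14 (-1.13, and -0.70 without the first stimulated array), Uchl5 (-0.53) and Pithd1 (-0.48). The Usp14 call ended without the first control array (adjusted p = 0.0559), the Uchl5 call without any array but the second stimulated one (0.0561 to 0.199), and the Pithd1 call without any single stimulated or control array (0.0713 to 0.147). Without the detection filter the Uchl5 and Pithd1 calls ended as well (0.0812 and 0.0633), and over the mean of its detected probes Pithd1 gave -0.28 (adjusted p = 0.133).

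Of 12 genes of ubiquitin supply and its transcriptional control, 5 were tested. Nfe2l1, whose product NRF1 switches on proteasome genes when proteasomes are short, had signals of 10337 and 9197 in stimulated, 9276 and 8399 in unstimulated and 5409 and 5654 in control samples and rose by 0.80 ± 0.17 in unstimulated against control samples (limma, adjusted p = 0.00767). Nfe2l2 (NRF2) rose by 0.61 ± 0.18 (adjusted p = 0.0304), a call that ended without either unstimulated array or the second control array (0.0764 to 0.171) and without the detection filter (0.0677). In the same comparison the constitutive genes had their median at -0.24. In stimulated against unstimulated samples 0 of the 5 were called (Nfe2l1 0.31 ± 0.17, Nfe2l2 0.19 ± 0.18), and in stimulated against control samples the same 2 genes rose (1.11 and 0.80). Without the first stimulated or second control array Nfe2l2 was not called in that comparison (adjusted p = 0.0581 and 0.0677). Of 5 NF-kB precursors and inhibitors that the proteasome processes or degrades, 4 were tested. Nfkbie, an IkB protein, rose in unstimulated and in stimulated samples against control (0.82 ± 0.17 and 1.17 ± 0.17, limma adjusted p = 0.00714 and 0.00147), and 0 of the 4 were called in stimulated against unstimulated samples, with Nfkbie (0.36) and Nfkb2 (0.22) the largest.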

How the data were processed

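Total RNA of the 6 samples was extracted with Trizol, cleaned with DNase I treatment and amplified to biotin-labelled cRNA, per the labels' protocols. The deposited signals are linear-scale intensities labelled as non-normalized, and each has a deposited detection p-value, per the column headers. The headers name neither a background step nor the reference of the detection p-values. Signals without background subtraction and p-values set against negative control beads were assumed. A deposited log2 table equalled quantile-normalized log2 signals within 0.00203, and it served as an alternative. Which software summarised the beads is not stated in the sources used here.

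In R 4.3.3 with limma 3.58.1, neqc (normexp, the negative controls being inferred from detection p-values, offset 16, quantile normalization, log2) was applied. Symbols came from the platform annotation: 34885 probes had 1, 18 several and 10378 none. Probes detected (p-value below 0.01) on at least 2 of 6 arrays were kept, and the probe with the highest mean stood for its gene. A linear model with a mean for each group used all 6 arrays together (3 residual and 6.00 prior degrees of freedom), and calls used Benjamini-Hochberg adjusted p-values below 0.05 over 8909 genes. Arrays limit the precision by their number, 2 per group. No 2 arrays were identical (88 to 134 of 45281 signals equal in a pair). Differences between replicates of one number correlated at -0.01, -0.04 and -0.02 across genes between groups, so replicate numbers were not taken as pairs.

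The members and gene lists were chosen with earlier results of these data known. Named were the inducible genes, their counterparts, caps, inhibitor, chaperones and tissue-specific genes, other called members up to 8 in each direction, and the 4 largest called changes of each related list (2 largest estimates if none was called). Psmb4, Psmd6, Tap1, Ifngr2, B2m, H2-D1, H2-K1, Irf2, Ifngr1, Jak2, Cd3e, Cd74 and Col1a1 were named after their values were seen. Promoter windows and gene order came from RefSeq tables (GRCm38.p6), searched with Python 3.11.15. The steps were tested on simulated data.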

Additional observations from a re-analysis of the deposited data

How the results depend on the processing

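Between stimulated and unstimulated samples 0 proteasome genes were called in each of the 17 alternatives. Between unstimulated and control samples 10 were called as reported and 7 to 14 in alternatives that kept all arrays; leaving out 1 array gave 5 to 11, with 5 without the second unstimulated array (4 rose, 1 fell). Between stimulated and control samples 12 were called as reported and 8 to 15 in alternatives with all arrays. Leaving out 1 array gave 6 to 10, with 7 without the first stimulated array, 7 without the first control array and 6 without the second control array. The replicate number as a block, which the data do not support as a pairing, gave 10, 12 and 0 genes. The median log2 change of inducible minus constitutive genes was 1.20 between unstimulated and control, 1.42 between stimulated and control and 0.08 between stimulated and unstimulated samples. With the mean of a gene's detected probes the first was 1.39 and the second 1.58, and with every detected probe on its own the first was 1.41. Leaving out 1 array gave 1.14 to 1.20, 1.38 to 1.44 and -0.086 to 0.21; the fit pools the spread, so a lone array is assumed to vary like the other groups. No named result changed its sign while called. Over all 8909 genes, 7 were called between stimulated and unstimulated samples as reported (7 higher, 0 lower), 44 without background correction (30 higher, 14 lower), 36 with an offset of 50 (25 higher, 11 lower) and 15 with median scaling (8 higher, 7 lower). Median scaling moved the all-gene median to -0.13 between stimulated and unstimulated samples, where the inducible median was -0.06, and to -0.11 between stimulated and control samples, where the constitutive median was -0.41 and 42.6% of called genes were higher, against 54.7% as reported. The cause of these shifts was not tested.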
